A study of Mus musculus with 2 samples.

Results

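The erythroid barcodes of 2 embryonic mouse pancreas libraries were examined, with the globin genes they carry and the rest of their RNA. A droplet barcode was taken as erythroid when more than 50% of its unique molecular identifiers (UMIs, each standing for 1 captured transcript molecule) fell on genes whose symbol starts with Hba- or Hbb-. The rule was applied to all deposited barcodes with no other filter. It found 69 of 6944 barcodes. The knockout-labelled library held 37 of 3044 (1.22%, 95% exact binomial interval 0.857 to 1.67) and the control library 32 of 3900 (0.821%, 0.562 to 1.16). These barcodes were chosen by their summed globin UMIs, so their high globin share is a description and not a finding.

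Each library was made from the pancreas of 1 C57BL/6 embryo at embryonic day 13.5. One embryo is titled knockout and is called Dpy30∆P in the design text, and the other is the control. Tissue was dissociated with trypsin, live cells that excluded the dye 7-AAD were sorted, and 3′ ends were tagged with version 2 of the Chromium droplet chemistry. Neither the promoter that drives the deletion nor the deleted part of Dpy30, a core subunit of histone H3 methyltransferase complexes, is given in the sources used here. With 1 library of 1 embryo in each group, differences between the libraries have no replicate check and no test was run. All intervals are 95% and cover counting error only. They treat UMIs as independent, although the UMIs of a gene can come from few barcodes.

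Haemoglobin of the red cell joins alpha-type and beta-type globin chains around haem. The genes of each type lie in a cluster, with the embryonic genes ahead of the adult ones on the strand of the genes. In the mouse embryo the first, primitive red cells arise in the yolk sac, enter the blood while still nucleated and use Hbb-y, Hbb-bh1 and Hba-x beside the alpha genes Hba-a1 and Hba-a2. Definitive red cells from the fetal liver lose their nucleus before they circulate, use Hba-a1 and Hba-a2 with the adult beta genes Hbb-bs and Hbb-bt, and replace the primitive cells over gestation.

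The promoters of 5 globin genes are shown because the results below turn on which of these genes each barcode carried. Each line gives the 250 bases before the RefSeq start of the gene on the gene's strand, from build GRCm38.p6. Capitals mark matches on either strand to 3 strings, a CACCC box, a GATA motif and a CCAAT box, whose letters are given after the sequences. The beta genes lie on the minus strand, Hbb-y at chr7:103853208-103853457, Hbb-bs at chr7:103827929-103828178 and Hbb-bt at chr7:103813924-103814173. The alpha genes lie on the plus strand, Hba-x at chr11:32276350-32276599 and Hba-a1 at chr11:32283422-32283671. The gene coordinates given further on are those of GENCODE vM21, whose spans begin upstream of these RefSeq starts, so the windows reach 9 bases into the GENCODE span of Hbb-y, 168 into Hbb-bs, 73 into Hbb-bt, 200 into Hba-x and 161 into Hba-a1.
Hbb-y: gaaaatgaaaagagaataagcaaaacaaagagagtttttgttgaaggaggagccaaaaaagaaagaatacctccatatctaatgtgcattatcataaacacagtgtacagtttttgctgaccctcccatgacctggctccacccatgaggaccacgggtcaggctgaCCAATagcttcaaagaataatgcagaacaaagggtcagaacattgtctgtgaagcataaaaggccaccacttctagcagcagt
Hbb-bs: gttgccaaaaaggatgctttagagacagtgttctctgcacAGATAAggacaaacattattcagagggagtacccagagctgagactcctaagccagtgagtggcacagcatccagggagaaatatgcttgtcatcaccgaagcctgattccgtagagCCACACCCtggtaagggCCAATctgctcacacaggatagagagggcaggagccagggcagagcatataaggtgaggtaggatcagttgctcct
Hbb-bt: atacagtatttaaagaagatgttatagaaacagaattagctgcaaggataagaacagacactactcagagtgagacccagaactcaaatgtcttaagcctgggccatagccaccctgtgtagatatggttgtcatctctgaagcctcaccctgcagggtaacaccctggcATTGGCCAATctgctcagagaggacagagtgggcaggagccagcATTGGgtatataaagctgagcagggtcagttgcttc
Hba-x: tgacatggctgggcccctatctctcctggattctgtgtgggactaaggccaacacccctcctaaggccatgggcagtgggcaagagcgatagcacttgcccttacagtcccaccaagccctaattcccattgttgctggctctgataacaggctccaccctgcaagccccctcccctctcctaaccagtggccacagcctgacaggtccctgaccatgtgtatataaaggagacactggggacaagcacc
Hba-a1: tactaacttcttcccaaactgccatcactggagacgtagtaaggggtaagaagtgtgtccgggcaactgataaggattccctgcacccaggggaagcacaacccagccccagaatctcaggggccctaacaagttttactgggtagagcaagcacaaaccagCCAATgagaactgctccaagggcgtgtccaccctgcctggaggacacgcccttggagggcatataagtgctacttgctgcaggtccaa

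RefSeq windows were matched for 7 of the 8 Hba- and Hbb- genes in the files, all but Hbb-bh1. The CACCC box was searched as CCACACCC and found in Hbb-bs, and 3.20% of all 32851 promoter windows of this length held it. The GATA motif was searched as AGATAA and found in Hbb-bs and Hbb-bh2 and in 9.99% of all windows. Other forms of the motif were not searched, so a window without a match can hold one. The form TGATAA occurs in the Hba-x, Hba-a1 and Hba-a2 windows and on the other strand in Hbb-y. The CCAAT box was found in Hbb-y, Hbb-bs, Hbb-bt, Hba-a1 and Hba-a2 and in 33.8% of all windows. Hbb-bt had 3 such matches, of which an adjoining pair lies on opposite strands. Hba-x held none of the 3 strings. The Hbb-bs and Hbb-bt windows were 69.3% identical, those of Hba-a1 and Hba-a2 97.6% and those of Hbb-y and Hbb-bs 50.7%. These matches describe letters in the windows and say nothing on binding.

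The knockout-labelled library held 28033433 UMIs with a median of 8049 per barcode, and the control library 32702089 UMIs with a median of 6825.5. The libraries shared 22 barcode sequences, none of them erythroid in either. Dpy30 did not check the label of the knockout-labelled library. In barcodes that carried epithelial markers it stood at 266 CPM (counts of UMIs per 1000000) in that library and at 226 CPM in the control library. In the erythroid barcodes it had 5 UMIs in 3 of 37 knockout-labelled barcodes, 4 of them in the 2 barcodes nearest the 50% threshold, and 0 in 32 control barcodes, where 3 counts over the group would be 130 CPM of UMIs outside globins. A 3′ tag outside the deleted part of the gene checks nothing. Xist, which silences an X chromosome in female cells, stood at 2122 CPM in the other barcodes of the knockout-labelled library and at 0.0616 in those of the control library. The Y-linked Ddx3y and Eif2s3y stood at 0 in the knockout-labelled library and at 56.9 and 41.0 in the control library. The libraries therefore differ in these sex-linked genes as well as in the label, and the 2 cannot be told apart here.

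The barcodes fell into groups far apart in globin share. Erythroid barcodes had 91.0% of their UMIs on globins in the knockout-labelled library and 90.2% in the control library, and they held 97.6% and 94.6% of all globin UMIs of their library. The highest globin share of any other barcode was 0.189% in the knockout-labelled library and, apart from 2 barcodes, 0.122% in the control library. Just inside the threshold lay 2 knockout-labelled barcodes at 51.3% and 56.1% and 1 control barcode at 69.3%. Just outside lay the 2 control barcodes, at 47.2% and 46.8%.

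Erythroid barcodes carried few kinds of transcript. They had 86 to 2847 genes with a UMI in the knockout-labelled library (median 324) and 77 to 1743 in the control library (median 241), while the median of the other barcodes was 2464 and 2247. This follows in large part from the rule, which puts most UMIs on 8 globin genes. A median of 643 and 498 UMIs per erythroid barcode was left for other genes, and the gene counts were not matched for depth. Their UMIs ran from 2466 to 22122 in the knockout-labelled library (median 12417) and from 2861 to 15228 in the control library (median 6430.5). A minimum of 500 genes per barcode would remove 28 of the 37 knockout-labelled and 27 of the 32 control erythroid barcodes, and none of the other barcodes. Only 42520 UMIs in the knockout-labelled and 23083 in the control erythroid barcodes lay outside globins. The 2 knockout-labelled barcodes just inside the threshold gave 16899 of them, and the control barcode at 69.3% gave 4673.

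**Figure D1:**
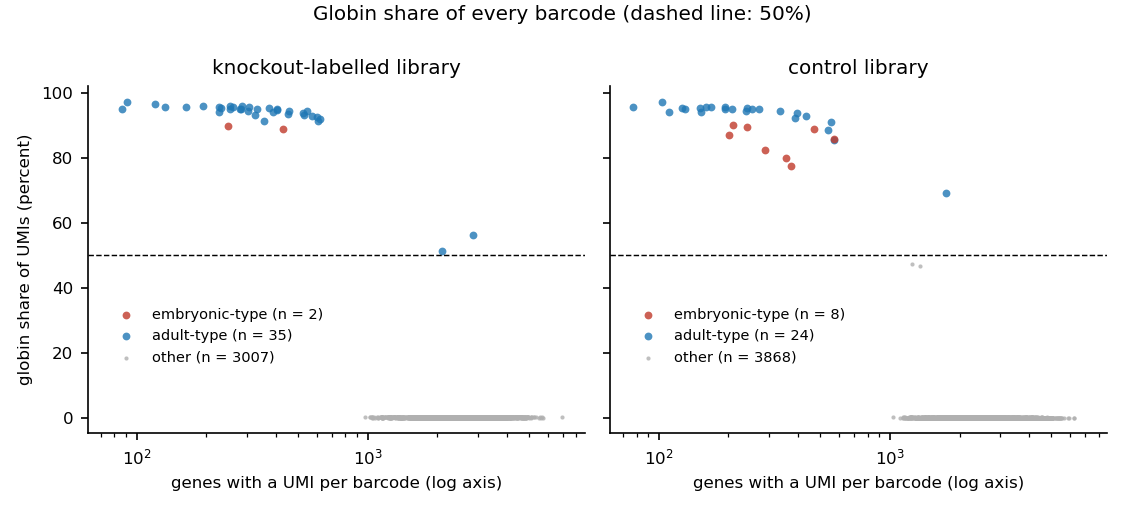
Each point is a barcode, with the number of genes with a UMI on a log axis and the percent of its UMIs on globin genes on the other, for the knockout-labelled library (left) and the control library (right). Erythroid barcodes lie above the dashed line at 50%, most of them under 500 genes, and all but 2 of the other barcodes lie below 0.2% globin.

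Erythroid barcodes fell into 2 groups by their beta-type globins. In 10 barcodes most beta-type UMIs were embryonic (Hbb-y, Hbb-bh1 and Hbb-bh2), and these are called embryonic-type. All 10 also held UMIs of both adult beta genes. In the remaining 59, called adult-type, nearly all were Hbb-bs and Hbb-bt. The embryonic share of beta-type UMIs was 86.9% and 85.8% in the 2 knockout-labelled embryonic-type barcodes, given in the same order throughout, and 82.2% to 92.7% in the 8 control ones (median 88.7%). In adult-type barcodes its highest value was 0.555% in the knockout-labelled library and 0.0319% in the control library, so no barcode lay near the division at 50%, which was drawn after the values were seen.

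Embryonic-type barcodes were 2 of 37 knockout-labelled erythroid barcodes (5.41%, interval 0.661 to 18.2) and 8 of 32 control ones (25.0%, 11.5 to 43.4). The counting intervals of these shares overlap. Summed over barcodes, embryonic genes gave 2.57% of beta-type UMIs in the knockout-labelled library (2.51 to 2.63) and 17.7% in the control library (17.5 to 17.9). These sums rest on the 2 and 8 embryonic-type barcodes. Among adult-type barcodes alone, embryonic genes gave 0.0423% of beta-type UMIs in the knockout-labelled library and 0.00491% in the control library. The median over all erythroid barcodes was 0 in each library.

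**Figure D2:**
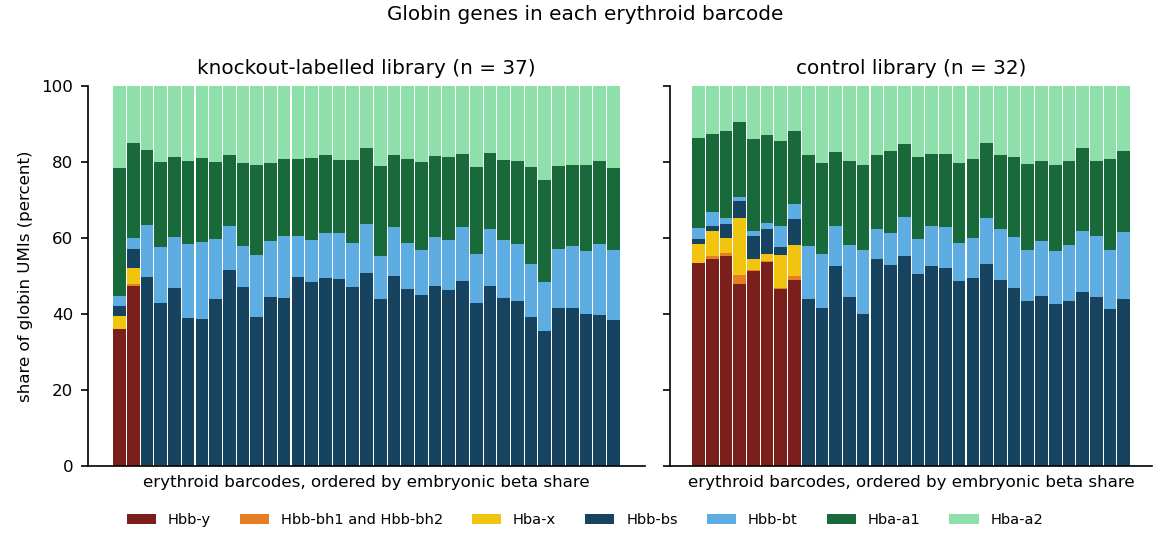
Each bar is an erythroid barcode, with the percent of its globin UMIs on each globin gene, ordered by embryonic share of beta-type UMIs, for the knockout-labelled library (left, n = 37) and the control library (right, n = 32). The 2 and 8 embryonic-type barcodes stand at the left of each panel, and the embryonic genes are at or near 0 in all other barcodes.

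Hbb-y, which encodes the main embryonic beta-type chain, carried most of the embryonic signal. In GRCm38 it lies on the minus strand at chr7:103851749-103853216. It had 1699 and 4614 UMIs in the knockout-labelled embryonic-type barcodes and 1806 to 4552 in the control ones (median 2551). In adult-type barcodes it never passed 1 UMI, and 5 barcodes of each library had 1.

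Hbb-bh1, the other early embryonic beta gene, was far scarcer (minus strand, chr7:103841637-103843164). It had 2 and 41 UMIs in the knockout-labelled embryonic-type barcodes and 5 to 90 in the control ones (median 24.5). In the knockout-labelled library 97 of its 140 UMIs lay in adult-type barcodes, 88 of them in 3 barcodes with 10, 39 and 39. Those 3 barcodes had 0, 0 and 1 UMI of Hbb-y and 2, 0 and 0 of Malat1. None of the 288 Hbb-bh1 UMIs of the control erythroid barcodes lay in an adult-type barcode. Hbb-bh2 had 1 UMI in the knockout-labelled erythroid barcodes and 0 in the control ones.

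Hba-x, the embryonic alpha-type gene (plus strand, chr11:32276400-32278116), was a minor part of the alpha-type RNA even in embryonic-type barcodes. It made up 5.82% and 9.46% of alpha-type UMIs in the knockout-labelled embryonic-type barcodes and 4.77% to 33.9% in the control ones (median 14.1%). The rest came from Hba-a1 and Hba-a2. In adult-type barcodes Hba-x summed to 5 UMIs in the knockout-labelled library, all in 1 barcode, and to 3 in the control library. The theta globins Hbq1a and Hbq1b had 4 and 3 UMIs in the knockout-labelled erythroid barcodes and 0 and 2 in the control ones.

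The 2 adult beta genes were not used in one ratio. Hbb-bs (minus strand, chr7:103826534-103828096) and Hbb-bt (minus strand, chr7:103812524-103813996) had 183090 and 61582 UMIs in knockout-labelled erythroid barcodes and 81635 and 23196 in control ones. In adult-type barcodes with at least 80% globin, Hbb-bs made up 65.5% to 82.0% of their sum in the knockout-labelled library (median 76.7%) and 70.7% to 87.4% in the control library (median 77.6%). In embryonic-type barcodes it made up 49.0% (42.8 to 55.3) and 66.0% (62.5 to 69.4) in the knockout-labelled library and 26.0% to 83.2% in the control library (median 67.4%).

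The 8 control embryonic-type barcodes split on this ratio. In 3 of them Hbb-bs made up 26.0%, 27.7% and 33.8% of the adult beta UMIs, and in the other 5 it made up 64.7% to 83.2%. The counting intervals nearest the gap were 27.3 to 40.8 below it and 61.2 to 68.1 above it. One of the 2 knockout-labelled embryonic-type barcodes lay in that gap, at 49.0% (42.8 to 55.3). The embryonic share of beta-type UMIs was 86.1%, 91.7% and 92.7% in the 3 low barcodes and 82.2% to 91.4% in the other 5.

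Hba-a1 and Hba-a2 also differed between the barcode types. Hba-a1 (plus strand, chr11:32283511-32284465) made up 60.8% and 62.4% of the Hba-a1 and Hba-a2 UMIs in the knockout-labelled embryonic-type barcodes and 60.9% to 67.5% in the control ones. In adult-type barcodes with at least 80% globin the range was 49.9% to 55.2% in the knockout-labelled library and 50.1% to 57.0% in the control library. The types did not overlap in either library. The counts within each pair of adult genes are uncertain, because 48.9% of the 90-base windows in the last 400 bases of the Hbb-bs transcript also occur in Hbb-bt, and 71.1% of those of Hba-a1 occur in Hba-a2. No such window of Hbb-y occurs in Hbb-bs, and none of Hba-x in Hba-a1.

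Alpha-type UMIs were fewer than beta-type UMIs, with a summed ratio of 0.707 in knockout-labelled and 0.674 in control erythroid barcodes. This ratio is uncertain too, because the adult alpha pair shares more of its transcript ends than the adult beta pair. The same holds for the embryonic shares of beta-type and alpha-type UMIs, since no such window of Hbb-y or Hba-x was shared. If shared reads were dropped, these values would shift, and this was not tested. Among embryonic-type barcodes the ratio was 1.41 and 0.794 in the knockout-labelled library and 0.610 to 0.832 in the control library. The knockout-labelled barcode at 1.41 was the one with more alpha-type than beta-type UMIs among the embryonic-type barcodes.

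The RNA outside globins differed between embryonic-type and adult-type barcodes, here taken as adult-type barcodes with at least 80% globin. The types were compared on counts summed over both libraries, 9180 UMIs outside globins in 10 embryonic-type barcodes and 34851 in 56 adult-type barcodes. Levels of these genes are CPM of UMIs outside globins, and a gene counts as higher or lower when the ratio of CPM + 20 passes 2-fold. Of 283 genes with at least 20 UMIs, 36 (12.7%) were higher in embryonic-type barcodes and 91 (32.2%) lower, around a median log2 ratio of -0.32. Of the 91, 12 had 0 UMIs in embryonic-type barcodes, and 87 were lower when such genes were set to 3 counts. The adult type gave most of the summed UMIs, so a gene scarce in the embryonic type entered more easily than one scarce in the adult type. The counts of lower genes, here and by list below, are therefore partly set by that filter. Library and type are mixed in this comparison, since 8 of the 10 embryonic-type barcodes were control and 33 of the 56 adult-type barcodes knockout-labelled. Within the control library alone 150 genes had at least 20 UMIs, and 37 of them (24.7%) were higher and 33 (22%) lower, so the excess of lower genes was not seen there.

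Malat1, a long RNA that stays in the nucleus, was high in most embryonic-type barcodes. It made up 5.31% and 9.90% of UMIs outside globins in the 2 knockout-labelled embryonic-type barcodes and 0% to 32.3% in the control ones (median 10.9%). The adult-type barcodes had 0% to 0.721% in the knockout-labelled library (median 0.240%) and 0% to 9.14% in the control library (median 0.332%). Summed, it was 8.50% and 0.251% for the embryonic and adult type in the knockout-labelled library and 10.1% and 1.81% in the control library. The other barcodes had 1.93% and 1.95%. The types overlapped, because 1 control embryonic-type barcode had no Malat1 UMI and 2 control adult-type barcodes had 106 and 70.

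Mitochondrial transcripts ran the other way. They made up 0.521% of UMIs outside globins in embryonic-type and 3.09% in adult-type barcodes of the knockout-labelled library, and 0.497% and 3.08% in the control library. The other barcodes stood at 2.61% in the knockout-labelled and 2.16% in the control library. Within the control library the highest embryonic-type barcode had 0.894% and the lowest adult-type barcode 1.20%, so the types did not overlap. In the knockout-labelled library they did, with embryonic-type barcodes at 1.33% and 0.166% and adult-type barcodes from 0.984%.

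**Figure D3:**
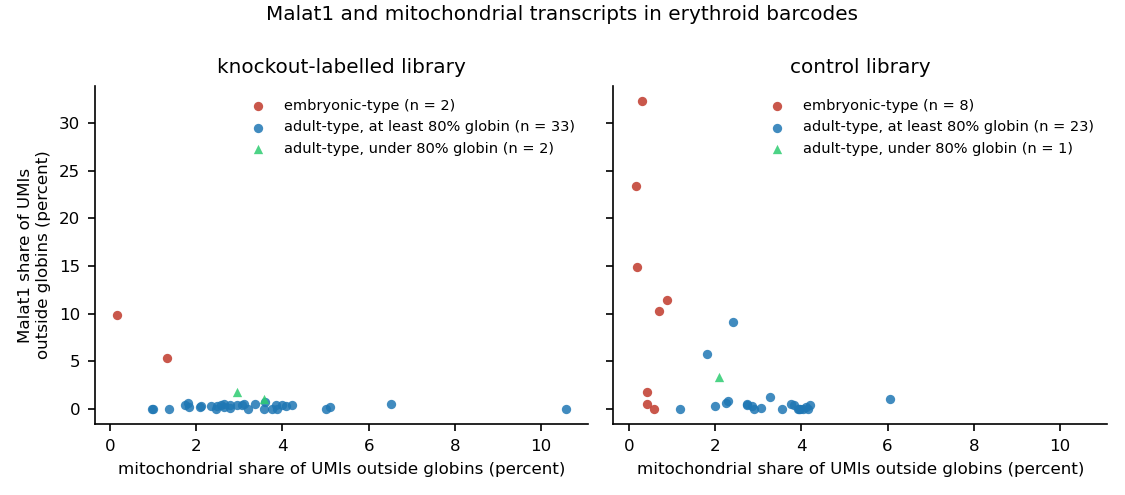
Each point is an erythroid barcode, with the mitochondrial share of its UMIs outside globins on the horizontal axis and the Malat1 share on the vertical axis, for the knockout-labelled library (left) and the control library (right). Most embryonic-type barcodes lie high and to the left, adult-type barcodes with at least 80% globin lie low, and 2 control adult-type barcodes stand above 5% Malat1.

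Ribosomal protein genes made up 28.6% and 25.7% of UMIs outside globins in the embryonic and adult type of the knockout-labelled library and 40.0% and 23.4% in those of the control library. The types overlapped in both libraries. In the control library embryonic-type barcodes ran from 23.0% to 64.0% (median 33.5%) and adult-type ones from 13.2% to 45.7% (median 25.7%). The highest embryonic-type barcodes there, at 64.0% and 50.5%, raised the sum. Knockout-labelled ranges were 21.8% to 31.5% and 18.2% to 39.1%. Single ribosomal protein genes were among the highest in embryonic-type barcodes, with up to 27 UMIs of Rpl17 and 32 of Rpl23a in 1 control erythroid barcode. Rplp0, a protein of the large subunit's stalk, had 103 UMIs in embryonic-type and 111 in adult-type barcodes, a 3.52-fold ratio of CPM. Rpl17 was 3.66-fold higher (2.67 to 5.02), with 1.36 (0.480 to 3.13) within the knockout-labelled library and 4.66 (2.91 to 7.71) within the control library, and Rpl23a 3.13-fold (2.31 to 4.21), while the matching pseudogene Rpl23a-ps3 was 6.83-fold higher and may share reads with Rpl23a. Hsd3b6, a steroid dehydrogenase, had 23 UMIs in embryonic-type and 6 in adult-type barcodes, a 14.6-fold ratio (5.76 to 43.7), and 2 and 1 UMIs in all other barcodes of the knockout-labelled and control library. Of the 23, the 2 knockout-labelled embryonic-type barcodes held 15 (10 and 5) and 3 of the 8 control ones held 8. All 6 UMIs of adult-type barcodes came from the knockout-labelled library. The ratio was 34.5-fold (12.7 to 108.7) within the knockout-labelled library and at least 3.92-fold within the control library, with its adult-type barcodes set at 3 counts.

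Many listed red cell genes were lower in embryonic-type barcodes. Alas2, the erythroid enzyme that starts haem synthesis, had 10 UMIs in 10 embryonic-type barcodes and 343 in 56 adult-type ones, a 0.111-fold ratio (0.0526 to 0.206). Slc25a37, which brings iron into mitochondria, had 4 and 174 UMIs, and the ubiquitin ligase gene Mkrn1 had 6 and 213.

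Genes with no UMI in embryonic-type barcodes included Fam220a, which was at least 5.62-fold lower, Eif5 (at least 5.36-fold) and Nusap1 (at least 3.42-fold). These bounds set the embryonic-type barcodes at 3 counts over the group. Fth1, the ferritin heavy chain, was 5.26% and 2.56% of UMIs outside globins for the embryonic and adult type in the knockout-labelled library and 3.95% and 1.95% in the control library. It was higher within each library, 2.05-fold (1.63 to 2.56) and 2.02-fold (1.69 to 2.42), but stood at 1.77-fold (1.56 to 2.00) when the libraries were summed. Ftl1, the light chain, was 8.91% and 8.18% for the embryonic and adult type in the knockout-labelled library and 6.11% and 6.44% in the control library, ratios of 1.09 (0.918 to 1.28) and 0.948 (0.841 to 1.07).

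By list, all against 91 of 283 genes lower over the whole table, 3 of 6 tested haem and iron genes were lower in embryonic-type barcodes (median log2 ratio -1.35), 4 of 4 red cell membrane genes (-1.84), 4 of 6 oxygen and antioxidant genes (-1.10) and 7 of 10 maturation genes (-1.85). In this sum no member of these lists was higher, and the filter on summed UMIs favoured genes high in the adult type. With genes at 0 UMIs set to 3 counts, 6 of the 10 maturation genes were lower and their median was -1.68. Within the control library alone, against 33 of 150 genes lower, 3 of 6 haem and iron genes were lower and Fth1 was higher, and 2 of 2 membrane genes, 3 of 6 oxygen and antioxidant genes and 6 of 7 maturation genes were lower. The membrane genes include Tmcc2, whose control UMIs lay mostly in 2 adult-type barcodes, with 28 and 14. Within that library the log2 ratio was -3.15 for Alas2, -3.70 for Slc25a37, -3.11 for Mkrn1 and 2.47 for Malat1, each in the direction of the sum of both libraries.

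Against the other barcodes of the same library, erythroid barcodes were rich in several genes of haem, the red cell membrane, oxygen handling and maturation. Of 530 genes with at least 20 UMIs observed or expected, 100 (18.9%) were at least 2-fold higher in both libraries and 45 (8.49%) at least 2-fold lower, on the scale of CPM + 20, which understates the change of genes that are low in one group. A gene scarce in the other barcodes could enter this comparison only by being high in erythroid barcodes. The counts of higher genes, here and by list below, are therefore partly set by that filter. The median log2 ratio over all genes tested was -0.28 in the knockout-labelled and -0.34 in the control library. Of the 100 higher genes 94 were also higher when only barcodes of at least 80% globin were used, and of the 45 lower genes 19.

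Of 21 measured haem and iron genes 7 were tested and all 7 were higher. Their median log2 ratios were 4.16 in the knockout-labelled and 4.33 in the control library. Among those not tested, Alas1 had no UMI in erythroid barcodes, and Tfrc was found in 0 of 37 and 2 of 32. Alas2 had 268 UMIs in knockout-labelled and 122 in control erythroid barcodes, 6303 CPM (5571 to 7104) and 5285 CPM (4389 to 6311), against 0.145 and 0.709 CPM in the other barcodes. Behind the 0.709 of the control library, 19 UMIs lay in the 2 barcodes just outside the threshold and 4 in those under 5% globin. The log2 ratios were 8.29 and 8.00, and 36 of 37 and 30 of 32 erythroid barcodes had an Alas2 UMI. Slc25a37 stood at 6.52 and 6.97 on the log2 scale, Fech, the enzyme that puts iron into haem, at 5.44 and 5.33, and Ftl1 at 4.16 and 4.05. Ftl1 had the most UMIs of any gene outside globins, 2250 and 1199, which is 5.29% and 5.19% of such UMIs, against 0.293% and 0.311% in the other barcodes. In barcodes with at least 80% globin the share was 8.23% (7.89 to 8.57) and 6.44% (6.07 to 6.82).

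Of 22 measured membrane and skeleton genes 4 were tested and 3 were higher in both libraries. Slc4a1, the anion exchanger band 3, had 12 UMIs in knockout-labelled and 11 in control erythroid barcodes, with log2 ratios of 3.92 and 4.60. Tmcc2 had 1 UMI in knockout-labelled and 45 in control erythroid barcodes and so passed 2-fold in the control library alone (0.98 and 6.45). Rhd, the Rh blood group protein, had 12 and 5 UMIs and was too scarce to test.

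Of 13 measured oxygen and antioxidant genes 7 were tested and 6 were higher. Car2, the carbonic anhydrase of red cells, stood at 7.10 on the log2 scale in both libraries, and Bpgm, which makes the 2,3-bisphosphoglycerate that loosens oxygen from haemoglobin, at 6.56 and 6.41. Gpx1, a peroxidase, stood at 5.72 and 5.36, Blvrb, biliverdin reductase B, at 5.07 and 4.82, and Prdx2, the main peroxiredoxin of red cells, at 3.18 and 3.58. Txn1, thioredoxin, was the member that did not pass, at 0.04 and -0.87.

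All 10 maturation genes tested, of 23 measured, were higher. Ube2l6, an enzyme that conjugates the ubiquitin-like ISG15, stood at 6.54 and 5.98, Mkrn1 at 6.03 and 5.72 and Bnip3l, a receptor for the removal of mitochondria, at 3.95 and 3.88. Ubb, a polyubiquitin gene, was the lowest of those with most UMIs, at 1.38 and 1.86. Outside the lists, Rec114, known for its part in meiotic recombination, stood at 6.20 and 5.61, Fam210b at 5.79 and 5.42 and Fam126a at 6.22 and 4.84.

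**Figure D4:**
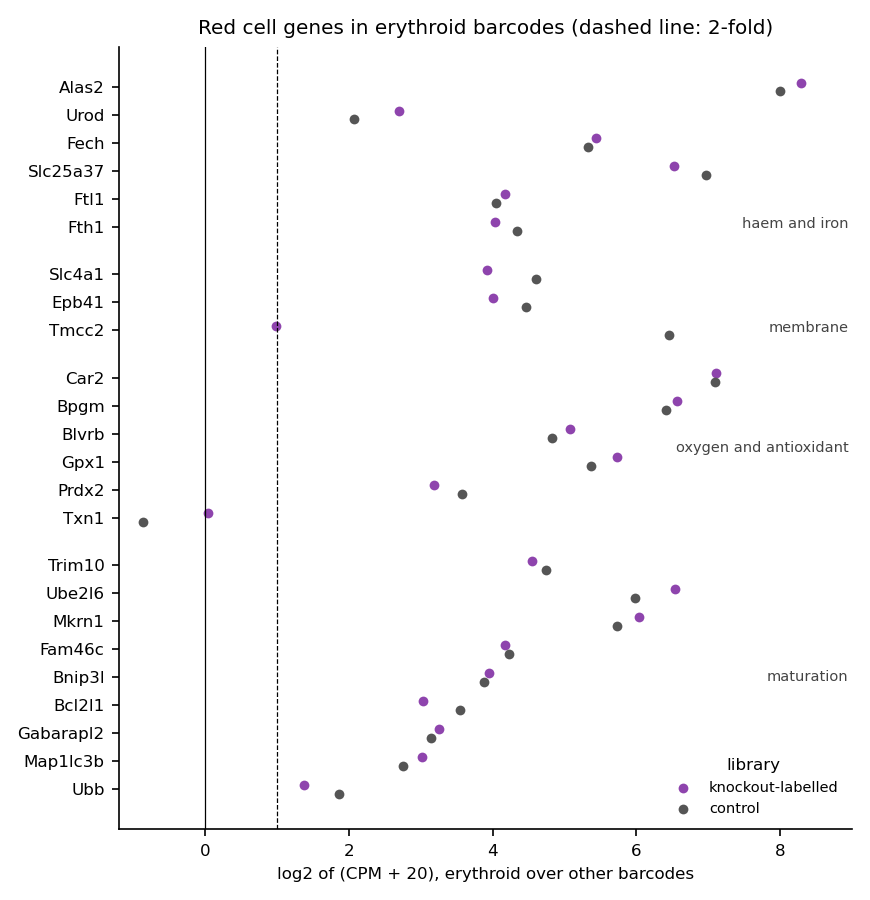
Points give the log2 ratio of CPM + 20 in erythroid over other barcodes for tested list genes, grouped as haem and iron, membrane, oxygen and antioxidant, and maturation, with the knockout-labelled library above the control library in each row. The dashed line marks 2-fold, and Txn1 in both libraries and Tmcc2 in the knockout-labelled library lie below it.

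Erythroid transcription factors had few UMIs. The 18 listed genes summed to 22 UMIs in knockout-labelled and 19 in control erythroid barcodes, with 10 and 9 of them detected. As CPM of UMIs outside globins the list nevertheless stood above the other barcodes. It was at 517 (324 to 783) against 274 in the knockout-labelled library and at 823 (496 to 1285) against 270 in the control library. Gata1 had 0 UMIs in both libraries, Klf1 had 0 and 3, and Foxo3 had the most, 8 and 2. The stem and early progenitor list summed to 3 and 1 UMIs and the platelet list to 1 and 0. The S phase list had 58 UMIs in knockout-labelled and 16 in control erythroid barcodes, and 44 of the 58 lay in the 2 knockout-labelled barcodes just inside the threshold. Of 3 mitotic genes tested, Ube2c (2.42 and 1.85 on the log2 scale) and Nusap1 (2.19 and 2.54) were higher and Hmgb2 (-1.18 and -2.10) was lower. The whole list of 19 mitotic genes stood near the other barcodes. It was at 3340 CPM (2813 to 3936) against 3102 in the knockout-labelled library and at 3249 (2556 to 4073) against 3567 in the control library. Its members Cdc20, Aurka, Aurkb and Bub1 had 0 UMIs in erythroid barcodes.

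Few UMIs stood behind the genes lowest in erythroid barcodes. Itm2b stood at -2.16 and -2.12 on the log2 scale, Vim, the filament protein vimentin, at -1.69 and -3.38, Actg1, cytoplasmic actin, at -1.67 and -2.20, Psmb1, a proteasome subunit, at -2.35 and -1.68, Tbca, a tubulin chaperone, at -1.84 and -2.59 and Rbm25 at -1.86 and -2.39. Cpa1, a carboxypeptidase of the acinar pancreas, had 2 UMIs in knockout-labelled and 0 in control erythroid barcodes, and Tra2b had 4 and 0.

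Markers of other cell types had few UMIs but were not at 0. As CPM of UMIs outside globins, mesenchyme markers stood at 894 against 1473 in the other barcodes (knockout-labelled) and 823 against 1748 (control). Epithelium markers stood at 470 against 1555 and 563 against 2484. Knockout-labelled immune markers were at 70.6 (14.6 to 206) against 107. For endothelium and mesothelium markers the counting intervals included the level of the other barcodes in both libraries. Of 14 epithelium markers 8 were detected with 20 UMIs in knockout-labelled erythroid barcodes and 5 with 13 UMIs in control ones, at most 3 and 2 in a barcode, and Epcam, Cdh1, Pdx1 and Sox9 had 0. Of 12 mesenchyme markers 9 were detected with 38 UMIs and 7 with 19 UMIs. The 2 knockout-labelled barcodes just inside the threshold held 24 of the 38 and the control barcode at 69.3% held 13 of the 19. Endothelium markers summed to 2 and 1 UMIs, immune markers to 3 and 4, neural markers to 2 and 1, mesothelium markers to 1 and 1 and liver markers to 5 and 4. Pecam1, Cdh5 and Ptprc had 0 UMIs. Whether a second cell or free RNA gave these UMIs was not tested, and doublets were not removed.

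Adult-type barcodes with at least 80% globin varied in their UMIs outside globins, from 123 to 1639 in the knockout-labelled library (median 640) and from 127 to 1262 in the control library (median 306). Their total UMIs varied as well, from 2466 to 20423 and from 2861 to 13956. The barcodes with 123 and 127 were also the shallowest, and the split below was not matched for depth. Split at the median, the barcodes above it were richer in some red cell genes and not in others. Car2 stood at 4903 CPM above the median and 739.6 at or below it in the knockout-labelled library, and at 6730 and 359 in the control library. Gpx1 stood at 17803 and 5621 CPM in the knockout-labelled library and at 17866 and 2870.5 in the control library. Prdx2 stood at 13600.3 and 6361 CPM in the knockout-labelled library and at 15908 and 4306 in the control library.

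Alas2 and Ftl1 did not follow them. Alas2 stood at 10156 CPM above the median and 9319.5 at or below it in the knockout-labelled library, and at 9545 and 10047 in the control library. Ftl1 stood at 71095 and 108876 CPM in the knockout-labelled library and at 50661 and 104772 in the control library. Rpl41, a small ribosomal protein, had 38466 and 55917 CPM in the knockout-labelled library and 30103 and 74991 in the control library. As shares of a total, these levels are not independent of each other, and the split itself uses that total.

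Between the libraries, 401 genes with at least 20 UMIs over both were compared over all erythroid barcodes. In the knockout-labelled library 37 (9.23%) were at least 2-fold higher and 11 (2.74%) at least 2-fold lower than in the control library, around a median log2 ratio of 0.11. Among adult-type barcodes with at least 80% globin, 15 of 254 (5.91%) were higher and 10 (3.94%) lower, and of the 37 and 11 genes 7 and 4 were past 2-fold in both sets of barcodes. Of the red cell lists 1 of 7 haem and iron genes and 1 of 4 membrane genes (Tmcc2) were lower, 1 of 7 oxygen and antioxidant genes (Txn1) was higher, and none of the 10 maturation genes passed 2-fold. The 2 knockout-labelled barcodes just inside the threshold held 11 Txn1 UMIs. Among adult-type barcodes with at least 80% globin, 0 of 6 oxygen and antioxidant genes tested were higher. Alas2 stood at a ratio of 1.19 (0.959 to 1.49) and Ftl1 at 1.02 (0.949 to 1.09). Among adult-type barcodes with at least 80% globin the Ftl1 ratio was 1.27 (1.16 to 1.39).

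The genes highest in the knockout-labelled erythroid barcodes came in large part from the 2 barcodes just inside the threshold. Xist had 56 UMIs against 0 in the control library and was at least 10.1-fold higher, with 46 UMIs in those 2 barcodes. Ranbp1, a partner of the nuclear transport GTPase Ran, had 36 UMIs against 4 (4.89-fold, 1.75 to 18.9), with 27 in those 2 barcodes, and its ratio among adult-type barcodes of at least 80% globin was 1.38 (0.343 to 7.90). The 2 barcodes also held 22 of 27 mt-Nd2 UMIs, 18 of 26 Id1 UMIs, 17 of 23 Rbm3 UMIs, 26 of 36 Snrpg UMIs and 15 of 22 Ywhae UMIs, genes with 3 to 5 UMIs in the control erythroid barcodes. Ndufa1, a subunit of respiratory complex I, was spread over 19 of 37 knockout-labelled and 4 of 32 control barcodes, with 35 UMIs against 4 (4.75-fold, 1.70 to 18.4) and 6.65-fold (1.68 to 57.5) among adult-type barcodes.

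Of the genes lowest in the knockout-labelled library, Tmcc2, an endoplasmic reticulum membrane protein, had 1 UMI against 45 (0.0121-fold, 0.000299 to 0.0707), but 28 and 14 of the 45 lay in 2 of 4 control barcodes that held it. Malat1 had 454 UMIs against 1101 (0.224-fold, 0.200 to 0.250), and among adult-type barcodes 60 against 198 (0.139-fold, 0.102 to 0.186), of which 2 control barcodes held 106 and 70. Nt5c3, a pyrimidine nucleotidase of red cells, had 8 UMIs in 6 barcodes against 17 in 12 (0.255-fold, 0.0954 to 0.625). Ap2m1 and Pdcd5 each had 8 UMIs against 12 (0.362-fold, 0.128 to 0.963) and Psmd4 10 against 13 (0.418-fold, 0.164 to 1.03).

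The 2 control barcodes just outside the threshold, at 47.2% and 46.8% globin, carried adult globins with no embryonic globin UMI. They had 6554 and 7150 UMIs and 1244 and 1353 genes, while the median of control erythroid barcodes was 241 genes. Hemgn, a nuclear protein of erythroid precursors, had 16 and 25 UMIs in them, Klf1, the erythroid Krüppel-like factor, 5 and 3 and Ube2c 14 and 18. All 32 control erythroid barcodes together had 1 Hemgn and 3 Klf1 UMIs. Hba-a1 made up 60.0% and 59.9% of the Hba-a1 and Hba-a2 UMIs, above the range of adult-type barcodes with at least 80% globin. Mesenchyme markers were at 0 in both.

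The 2 knockout-labelled barcodes just inside, with 14776 and 22122 UMIs and 2104 and 2847 genes, each held 12 UMIs of mesenchyme markers. Malat1 had 75 and 172 UMIs and Xist 14 and 32 in them. The control barcode at 69.3%, with 15228 UMIs and 1743 genes, held 13 UMIs of mesenchyme markers and 154 of Malat1.

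Globin UMIs in all other barcodes were treated as background. They made up 378 CPM of all UMIs in the knockout-labelled library (371 to 385) and 377 in the control library (370 to 383). Of the 12224 globin UMIs behind the control value only 5787 were left without the 2 control barcodes just outside the threshold, and the control level was then 178 (174 to 183). The share of barcodes with at least 1 globin UMI was 93.9% in the knockout-labelled library, with a median of 8010 UMIs, and 72.8% in the control library without those 2, with a median of 6829. After thinning every barcode to 3000 UMIs the shares were 68.1% of 2947 barcodes and 42.7% of 3826, with 60 and 40 shallower barcodes left out.

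The level differed far less between kinds of barcode than between the libraries. Barcodes were sorted by markers, with at least 10 UMIs and 3 genes of 1 list. In the knockout-labelled library the level was 356 CPM (342 to 370) in 469 epithelium-marked barcodes, 386 (376 to 396) in 1737 mesenchyme-marked ones and 341 to 378 in mesothelium-, endothelium-, immune- and neural-marked ones. In the control library it was 173 (165 to 182), 182 (175 to 189) and 153 to 206. The intervals of the epithelium- and mesenchyme-marked barcodes overlapped in the control library and not in the knockout-labelled one. With the barcodes in 4 groups of nearly equal size by depth, from the shallowest, it was 414, 402, 384 and 352 in the knockout-labelled library and 187, 184, 189 and 168 in the control library.

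**Figure D5:**
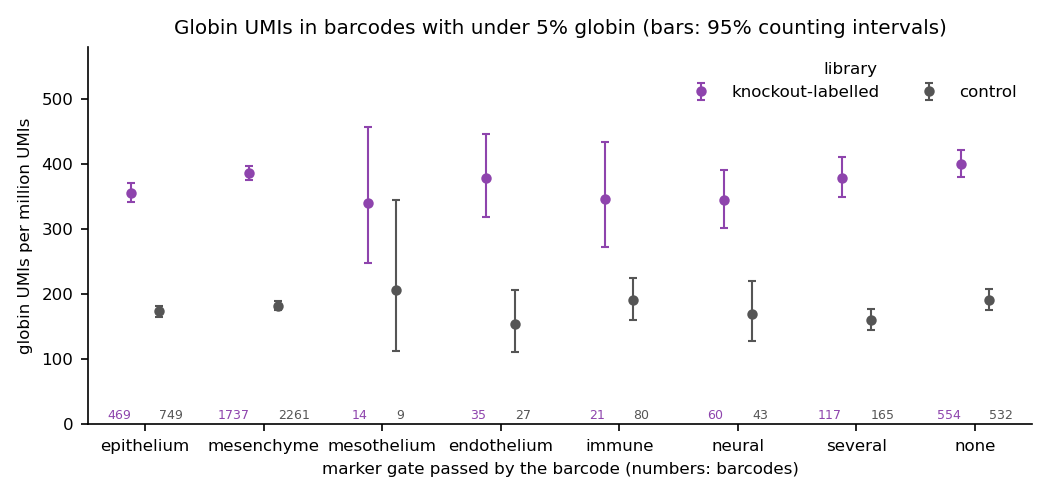
Points give globin UMIs as CPM of all UMIs, with 95% counting intervals, for barcodes with under 5% globin sorted by the marker list they passed, with the knockout-labelled library left of the control library at each list. The knockout-labelled library lies between 341 and 401 and the control library between 153 and 206.

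The make-up of the background globins was close to that of the library's erythroid barcodes for some genes and not for others. Embryonic genes gave 2.20% of beta-type UMIs in the other barcodes of the knockout-labelled library (1.87 to 2.57), close to the 2.57% of its erythroid barcodes, and 22.9% in those of the control library under 5% globin (21.6 to 24.3), above the 17.7% of its erythroid barcodes. Hbb-bs made up 81.3% and 85.2% of the adult beta UMIs, above the summed 74.8% and 77.9% of erythroid barcodes. The ratio of alpha-type to beta-type UMIs was 0.499 and 0.457, below the 0.707 and 0.674 of erythroid barcodes. Hba-x had 3 UMIs in the knockout-labelled and 56 in the control library, where the erythroid ratio of Hba-x to globin UMIs would give 13.9 and 72.2. Alas2 had 4 and 4 UMIs, where the same ratio would give 6.52 and 3.31.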

How the data were processed

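Per the submitters' processing notes, which name Cell Ranger and Seurat 2 and 3 with the builds GRCm38 and mm10, the authors deposited for each library a matrix of UMI counts (genes by barcodes). No source used here gives the version of Cell Ranger or its handling of reads shared by several genes. A deposited table of cluster genes was not used. Groups were taken from the sample titles.

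From the counts, globin shares were computed for every barcode, UMIs were summed over barcodes of a type, and levels were scaled to 1000000 UMIs outside globins (CPM). Ratios are log2 of (CPM + 20), and genes needed at least 20 UMIs over the groups compared (for erythroid against other barcodes, observed or expected from the other barcodes). Shares have Clopper-Pearson intervals, CPM exact Poisson intervals and folds the exact conditional interval, all at 95%. A group at 0 UMIs was set to 3 counts over the group. No doublets were removed.

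The erythroid barcodes, the gene lists and the alternatives were chosen with earlier results of these data known, and the division into embryonic-type and adult-type, the 80% limit within adult-type and the marker gates after seeing the values. Genes outside the globins were named as those with the most UMIs (15), the highest (15) and lowest (8) of erythroid over other barcodes, the 8 highest and 8 lowest between libraries, and the 10 highest and lowest of embryonic-type over adult-type, beside list members. The last rule and the genes Ddx3y, Eif2s3y and Hemgn were added after values were seen. No row of the files matched the listed names Hbb-bh0, Hbb-bh3, Hbb-b1, Hbb-b2, Flvcr1, Ahsp, Tent5c (present as Fam46c) and Rian. Coordinates are GRCm38 from GENCODE M21, and promoters came from RefSeq GRCm38.p6. The ratios and intervals were tested on simulated data. Python 3.11.15, numpy 2.4.6, scipy 1.17.1 and pandas 2.3.3 were used. Some genes that the rule names are not reported here.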

Additional observations from a re-analysis of the deposited data

How the results depend on the processing

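Of 85 values under alternative settings, 57 stayed within 1.5 times the count or within the counting interval reported and 28 did not. The number of erythroid barcodes, and the shares at the 1000 UMI minimum and with theta globins counted, stayed. Those 2 settings could hardly move a value and are no check. The shallowest erythroid barcodes had 2466 and 2861 UMIs, and theta globins had 7 and 2 UMIs in all. Likewise the knockout-labelled barcodes under 5% globin are the same 3007 as in the main setting. All of these are counted among the 57. The embryonic share of beta-type UMIs was 2.70% in the knockout-labelled library for barcodes over 80% globin, and in the control library 17.2% over 30% and 16.9% over 80%. Its median over barcodes was 0 in each, as was that of Hba-x among alpha-type UMIs, whose control sum was 2.79% over 80%. Globin in the other barcodes had a median of 359 CPM in the knockout-labelled and 164 in the control library, and the control sum under 5% globin was 178, with 22.9% embryonic beta-type UMIs. For erythroid against other barcodes, 25 genes were lower at a pseudocount of 100 CPM, 56 were higher and 10 lower at 50 UMIs, 170 higher and 240 lower at 5 UMIs, and 77 lower over 80% globin. For knockout-labelled against control barcodes, 6 were lower at 100 CPM, 6 higher and 2 lower at 50 UMIs, 282 higher and 158 lower at 5 UMIs, 24 lower over 30% globin, 19 higher and 5 lower over 80%, and 15 higher among adult-type barcodes over 80%. For embryonic-type against adult-type, 33 were lower in the control library alone. The balance of higher to lower genes switched sides for erythroid against other barcodes at 5 UMIs (170 to 240, reported as 100 to 45) and for this comparison in the control library alone (37 to 33, reported as 36 to 91). The UMI minimums change the number of genes tested, and the cause of the other differences was not tested. Median-of-ratios scaling moved log2 ratios between libraries by 0.03. The settings with adult-type barcodes over 80% globin, the control library alone and the 3-count floor were chosen after seeing the data. No paired analysis was possible because each group is 1 library. Depth outside globins, 42520 and 23083 UMIs, limits all single-gene values.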
